A study of Mus musculus with 6 samples.

Results

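ATP-binding cassette (ABC) genes of the mouse descending colon were taken from the gene count table as the protein-coding rows whose symbol begins with Abc, one of the letters a to g and a digit. The rule found 50 genes of the 55849 in the table, in 7 subfamilies lettered A to G. They were compared between 3 libraries of Muc2-/- mice and 3 libraries of wild-type C57BL/6 mice, all aged 12 weeks and untreated. The mucin encoded by Muc2 forms the mucus gel over the colon, and its loss in mice leads to chronic colitis. RNA was polyadenylated RNA from pieces of descending colon, although the sample titles speak of crypts. The labels give neither the sex or number of animals behind a library nor the part of Muc2 that the mutation removes, so p-values speak of the spread among these 6 libraries alone, which may be technical.

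Total counts were between 16627761 and 17465636 in the Muc2-/- libraries and between 16395432 and 20336459 in the wild-type libraries. Muc2 had 757, 1021 and 942 CPM (a gene's counts scaled to the library size) in Muc2-/- 1, 2 and 3, against 2480.1, 6977 and 2629 CPM in wild-type 1, 2 and 3. Transcripts of the mutated gene were thus lower in every Muc2-/- library but counted in all of them. Its log2 fold change of -2.15 (SE 0.47) had an adjusted p of 0.103 in edgeR's quasi-likelihood test. Muscle transcripts were present beside those of epithelium. All 12 smooth muscle markers had counts, and their summed level was 2892 to 5206 CPM in Muc2-/- and 6835 to 24312 CPM in wild-type. On the first principal component of all tested genes, wild-type 1 and Muc2-/- 2 were the most distant libraries.

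ABC proteins couple the binding and hydrolysis of ATP to movement of a substrate across a membrane. Subfamilies A and G mostly handle lipids and sterols. Subfamily B holds P-glycoprotein and several mitochondrial and lysosomal carriers. Members of C export conjugated organic anions or serve as regulatory subunits of potassium channels, and those of D carry fatty acids into peroxisomes or cobalamin out of lysosomes. The proteins of E and F have ATP-binding cassettes but no membrane part, and act on ribosomes and translation. In the intestine the apical exporters P-glycoprotein, Abcc2 and Abcg2 return drugs and metabolites to the lumen, whereas Abcc3 sits on the basolateral side.

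RefSeq promoters of build GRCm38.p6 were found for 38 of the 50 genes, and the 250 bases before the start site are shown for 5 of the 9 members that DESeq2 called, chosen after their values were seen. These are Abcc2 (chr19:43782058-43782307, plus strand), Abca8a (chr11:110095938-110096187, minus strand), its neighbour Abca8b (chr11:109995846-109996095, minus strand), Abcc9 (chr6:142702275-142702524, minus strand) and Abcg3 (chr5:104982718-104982967, minus strand). The first 4 genes were lower in Muc2-/- and Abcg3 was higher. Capitals mark matches to the motifs searched, each on both strands, none of which overlap here. The TATA motif was searched as TATAAA. The GC box was searched as GGGCGG, and on the opposite strand it reads CCGCCC. The E-box searched was CACGTG, which is its own reverse complement. AGGTCA was included as the core of many nuclear receptor sites, and the CArG box as a motif of many muscle genes.
Abcc2: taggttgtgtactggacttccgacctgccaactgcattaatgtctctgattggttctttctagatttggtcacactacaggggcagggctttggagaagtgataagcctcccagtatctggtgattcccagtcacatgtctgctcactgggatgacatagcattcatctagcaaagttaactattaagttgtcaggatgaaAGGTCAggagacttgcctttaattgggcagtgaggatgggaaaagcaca
Abca8a: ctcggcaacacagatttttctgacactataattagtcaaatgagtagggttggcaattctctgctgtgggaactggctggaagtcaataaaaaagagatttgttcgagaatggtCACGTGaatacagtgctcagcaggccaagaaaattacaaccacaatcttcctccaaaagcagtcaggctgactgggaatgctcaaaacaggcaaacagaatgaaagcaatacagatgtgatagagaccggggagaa
Abca8b: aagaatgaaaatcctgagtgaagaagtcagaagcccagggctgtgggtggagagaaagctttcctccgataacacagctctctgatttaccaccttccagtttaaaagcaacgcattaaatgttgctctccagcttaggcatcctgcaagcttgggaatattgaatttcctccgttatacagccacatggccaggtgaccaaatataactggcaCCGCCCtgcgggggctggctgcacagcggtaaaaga
Abcc9: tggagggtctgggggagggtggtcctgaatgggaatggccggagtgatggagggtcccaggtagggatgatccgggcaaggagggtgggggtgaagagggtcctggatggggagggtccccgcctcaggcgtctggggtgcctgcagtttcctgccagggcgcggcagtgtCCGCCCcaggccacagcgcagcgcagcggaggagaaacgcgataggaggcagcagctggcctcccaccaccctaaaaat
Abcg3: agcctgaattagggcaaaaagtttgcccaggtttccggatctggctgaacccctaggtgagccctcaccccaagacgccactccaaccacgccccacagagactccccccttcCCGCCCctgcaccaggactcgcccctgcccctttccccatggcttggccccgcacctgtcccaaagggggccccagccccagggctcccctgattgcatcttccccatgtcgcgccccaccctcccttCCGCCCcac
The Abcc2 window held AGGTCA beginning 49 bases before the start site, a motif present in 14% of all 32851 promoter windows of that length. Abca8a held CACGTG, found in 6.02% of windows. Abca8b and Abcc9 each held 1 GC box and Abcg3 held 2, and 32.7% of windows have one. TATAAA (12.4% of windows) and the CArG box (1.47%) occurred in none of these 5 windows. CpG dinucleotides numbered 1 in the Abcc2 window, 4 in Abca8a, 6 in Abca8b, 12 in Abcc9 and 9 in Abcg3, beside a median of 6 over all windows. A match is a description of letters and not of a site in use.

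Of the 50 members 41 had enough counts to be tested and 9 did not. Untested members were Abca4, Abca6, Abca14, Abca15, Abca16, Abca17, Abcb5, Abcb11 and Abcc12. Abcb5 and Abcc12 had 0 counts in all 6 libraries, which allows up to 0.143 to 0.198 CPM in a library (3 counts, for counting error only). Abcb11, the bile salt exporter of hepatocytes, had 5, 4 and 9 counts in Muc2-/- 1, 2 and 3, against 0, 3 and 0 in wild-type 1, 2 and 3. The other 6 untested members had between 0 and 22 counts in a library.

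Between the groups no tested member passed an adjusted p of 0.05 in edgeR, either way, where 0.106% of all 16107 genes tested were called higher in Muc2-/- and 0.0186% lower. The smallest adjusted p of a member was 0.0931, that of Abcc2. At an unadjusted p under 0.05 there were 3 members higher (7.32% of those tested) and 12 lower (29.3%), where all genes gave 8.23% and 12.7%. DESeq2, run as an alternative, called 2 members higher (4.88%; all genes 4.09%) and 7 lower (17.1%; all genes 7.41%). Groups did not overlap for 4 members that were higher (9.76%; all genes 13.3%) and 10 that were lower (24.4%; all genes 15.2%). The median log2 fold change (Muc2-/- over wild-type) of the tested members was -0.3, and that of all genes tested was -0.01. In bulk tissue, fewer cells of a type and less RNA per cell cannot be told apart.

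By subfamily, the 10 tested members of A had a median log2 fold change of -1.16, with 4 at an unadjusted p under 0.05, all lower. The 9 tested members of C had a median of -0.76, with 5 lower and 0 higher. The other subfamilies lay nearer to the median of all genes. Medians were -0.13 over 8 members in B, 0.2 over 4 in D, 0.04 over 3 in F and -0.04 over 6 in G, and the single member of E had -0.21. With single libraries left out, the median of A ran from -1.37 to -0.41, its value without wild-type 2, and it was -0.55 without Muc2-/- 2. The filter was applied anew in each of these fits, so 41 or 42 members of the family were tested. Among the members of A, Abca12 had -1.83 in the fit of all libraries, with 70, 646 and 2 counts in wild-type 1, 2 and 3. The median of C ran from -0.89 to -0.5, the value without Muc2-/- 2. In B, D and G, 1 member each way passed an unadjusted p of 0.05, and in E and F none did (edgeR). On the deposited FPKM with no minimum, 48 members entered, among them the 6 of A that edgeR left untested. The medians of A and C were then -0.11 and -0.25 with a pseudocount of 1, which shrinks low genes. With a pseudocount of 0.1 they were -0.17 and -0.74.

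**Figure D1:**
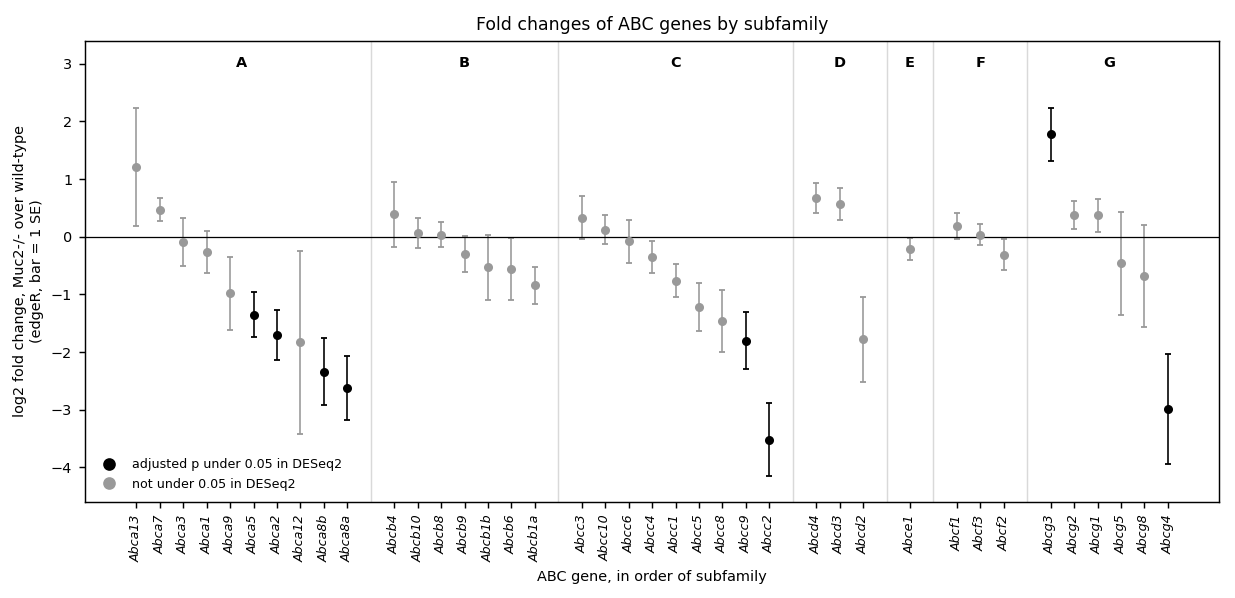
Log2 fold change of 39 of the tested ABC genes (Muc2-/- over wild-type, edgeR, bars are 1 SE), grouped by subfamily letter. Black points mark the 8 genes under an adjusted p of 0.05 in DESeq2, of which 7 lie below 0 in subfamilies A, C and G.

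Summed over the family, ABC transcripts came to 1543, 1575 and 1625 CPM in Muc2-/- 1, 2 and 3, against 1554, 1799.8 and 2003 CPM in wild-type 1, 2 and 3. Wild-type 1 lay within the Muc2-/- range, and the sum of 1581 ± 41.2 CPM in Muc2-/- and 1785 ± 225 CPM in wild-type (SD, n = 3 each) thus overlapped between the groups. Per length, on the FPKM scale, subfamily B had the highest sum, with 93.7, 78.6 and 83 FPKM in Muc2-/- 1, 2 and 3, against 84.3, 108 and 181 FPKM in wild-type 1, 2 and 3. Most of it was Abcb1a. Subfamily D summed to 37.1, 47.9 and 41.2 FPKM in Muc2-/-, against 25.8, 35.8 and 32.7 FPKM in wild-type. These sums were apart only by the small gap between Muc2-/- 1 and wild-type 2. Most of the sum was Abcd3, whose own groups overlapped. Subfamily A summed to 18.1 to 19 FPKM in Muc2-/- and 17.4 to 26.7 FPKM in wild-type.

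**Figure D2:**
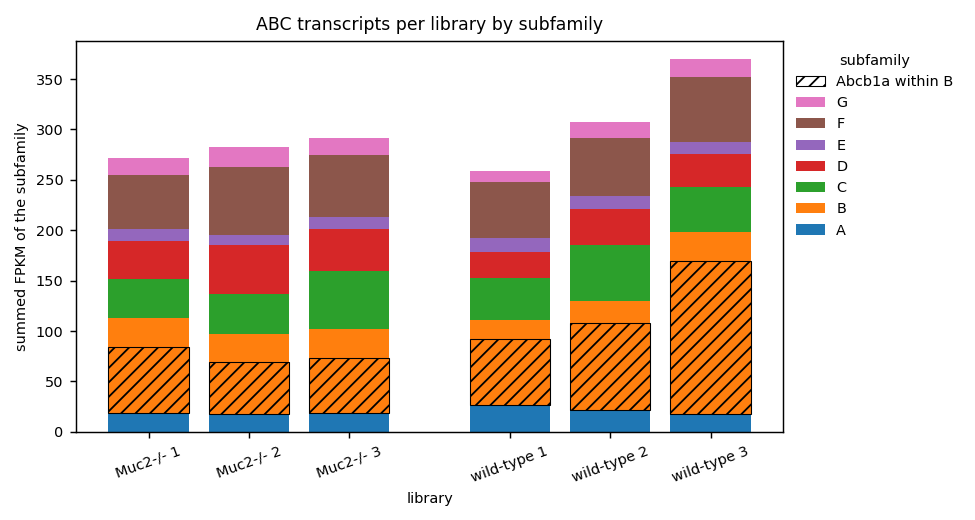
Summed FPKM of each ABC subfamily in each library, stacked by subfamily, with Abcb1a hatched within B. Abcb1a reaches 152 FPKM in wild-type 3 and 50.8 to 65.3 FPKM in the Muc2-/- libraries.

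Among the exporters of subfamily C, Abcc2 had the largest difference. It carries glucuronide and glutathione conjugates across the apical membrane. It had 1.19, 0.529 and 0.556 CPM in Muc2-/- 1, 2 and 3, against 16, 5.94 and 4.63 CPM in wild-type 1, 2 and 3. Every Muc2-/- library lay below every wild-type one, and wild-type 1 stood above the other two. The group means were 0.759 ± 0.375 CPM in Muc2-/- and 8.84 ± 6.19 CPM in wild-type (SD, n = 3 each), 11.7-fold lower in Muc2-/-. Its log2 fold change was -3.52 (SE 0.63), with an adjusted p of 0.0931 in edgeR and 4.29e-06 in DESeq2, and without wild-type 1 it was -2.79 (-2.59 without both wild-type 1 and Muc2-/- 2). The counts behind it were 20, 8 and 9 in Muc2-/- and 288, 114 and 97 in wild-type.

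Abcc3, the basolateral exporter of glucuronides and bile acids, had far higher levels than Abcc2 and no such difference. It stood at 159, 178 and 266 CPM in Muc2-/- 1, 2 and 3, against 84.8, 223 and 172 CPM in wild-type 1, 2 and 3. The groups overlapped, wild-type 1 being the lowest library (log2 fold change 0.33, SE 0.37, edgeR adjusted p = 0.647). Per length Abcc3 averaged 35.5 FPKM in Muc2-/- and 27.9 FPKM in wild-type, the highest level in subfamily C, whereas Abcc2 averaged 0.089 FPKM in Muc2-/- and 1.02 FPKM in wild-type.

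Abcc1, an exporter of glutathione conjugates present in most cells, had 31, 16.8 and 31.2 CPM in Muc2-/- 1, 2 and 3, against 52.8, 45.5 and 35.8 CPM in wild-type 1, 2 and 3. All Muc2-/- values lay under the lowest wild-type value, but its log2 fold change of -0.76 (SE 0.28) had an adjusted p of 0.183 in edgeR and 0.111 in DESeq2. Abcc5, which exports cyclic nucleotides, had 7.03, 8.92 and 10.5 CPM in Muc2-/-, against 30.9, 21.5 and 9.44 CPM in wild-type. Here wild-type 3 lay inside the Muc2-/- range (log2 fold change -1.22, SE 0.42, edgeR adjusted p = 0.162). The remaining exporters of the subfamily, Abcc4, Abcc6 and Abcc10, had log2 fold changes between -0.35 and 0.12 and overlapping groups.

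Both regulatory subunits of ATP-sensitive potassium channels in subfamily C were lower. Abcc9, the sulfonylurea receptor of smooth muscle and pericytes, had 24.8, 13 and 14 CPM in Muc2-/- 1, 2 and 3, against 105, 48.5 and 26.5 CPM in wild-type 1, 2 and 3. The groups did not overlap, although wild-type 3 was close to Muc2-/- 1. Means were 17.2 ± 6.53 CPM in Muc2-/- and 60.1 ± 40.7 CPM in wild-type (SD, n = 3 each; log2 fold change -1.80, SE 0.50, adjusted p = 0.116 in edgeR and 0.00781 in DESeq2). Without wild-type 1 the log2 fold change of Abcc9 was -1.12 (edgeR adjusted p = 0.303), and without both wild-type 1 and Muc2-/- 2 it was -0.95. Abcc8, the receptor of endocrine cells and neurons, had 0.714, 1.52 and 0.803 CPM in Muc2-/-, against 4.04, 2.5 and 1.86 CPM in wild-type (log2 fold change -1.46, SE 0.53, adjusted p = 0.177 in edgeR and 0.0869 in DESeq2). Kcnj8, a pore subunit that pairs with Abcc9, had 16, 16.9 and 6.74 CPM in Muc2-/-, against 29.9, 21.9 and 10.6 CPM in wild-type, and its groups overlapped (log2 fold change -0.65, SE 0.46, edgeR adjusted p = 0.454). Kcnj11, the other pore subunit, had too few counts to be tested.

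In subfamily A, the neighbouring genes Abca8a and Abca8b on chromosome 11 were lower together. They belong to a cluster of lipid transporter genes with Abca5, Abca6 and Abca9. Abca8a (109916460 to 109986804 as the count table gives it) had 4.53, 2.84 and 2.16 CPM in Muc2-/- 1, 2 and 3, against 34.7, 15.5 and 8.58 CPM in wild-type 1, 2 and 3. Abca8b (109823016 to 109886671) had 1.01, 2.18 and 1.55 CPM in Muc2-/-, against 12.2, 8.81 and 3 CPM in wild-type. In both genes the groups were apart and wild-type 1 was highest and wild-type 3 lowest. Log2 fold changes were -2.62 (SE 0.55) for Abca8a and -2.34 (SE 0.58) for Abca8b, with adjusted p of 0.101 and 0.103 in edgeR and 0.000175 and 0.00279 in DESeq2. Without wild-type 1 that of Abca8a was -1.92, and without both wild-type 1 and Muc2-/- 2 it was -1.85.

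Of the other members of that cluster, Abca5, an endosomal and lysosomal protein, had 2.56, 2.05 and 1.85 CPM in Muc2-/- 1, 2 and 3, against 6.92, 5.89 and 3.72 CPM in wild-type 1, 2 and 3. The groups did not overlap (log2 fold change -1.35, SE 0.39, adjusted p = 0.121 in edgeR and 0.016 in DESeq2). Abca9 had 2.86, 0.595 and 1.55 CPM in Muc2-/-, against 4.76, 3.13 and 2 CPM in wild-type, with overlap (log2 fold change -0.98, SE 0.63, edgeR adjusted p = 0.409). Abca6 was not tested and had 7, 0 and 1 counts in Muc2-/-, against 22, 8 and 6 counts in wild-type. All 5 cluster members were thus highest in wild-type 1.

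Abca2, a lipid transporter of endosomes and lysosomes that is abundant in myelinating glia, had 6.79, 3.9 and 7.91 CPM in Muc2-/- 1, 2 and 3, against 30.2, 19.4 and 11 CPM in wild-type 1, 2 and 3. Every Muc2-/- library was below every wild-type one. Means were 6.2 ± 2.07 CPM in Muc2-/- and 20.2 ± 9.61 CPM in wild-type (SD, n = 3 each; log2 fold change -1.70, SE 0.43, adjusted p = 0.104 in edgeR and 0.00416 in DESeq2). Without both wild-type 1 and Muc2-/- 2 the log2 fold change was -1.05.

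Abca7, which acts in phospholipid handling and phagocytosis, had the highest level of subfamily A per length, with a mean of 11 FPKM in Muc2-/- and 7.78 FPKM in wild-type. It went the other way, with 64.2, 88.7 and 68.2 CPM in Muc2-/- 1, 2 and 3, against 56.5, 58.9 and 44.2 CPM in wild-type 1, 2 and 3. The groups did not overlap, and the difference did not pass adjustment over all genes (log2 fold change 0.47, SE 0.20, adjusted p = 0.239 in edgeR and 0.188 in DESeq2). Abca1, the exporter of cholesterol and phospholipid to apolipoprotein A-I, had 11.4, 8.72 and 11.9 CPM in Muc2-/-, against 19.7, 10.1 and 8.58 CPM in wild-type, with overlap. Abca3, the lamellar body transporter of lung surfactant, also overlapped, with 17.5 to 56 CPM in Muc2-/- and 30.6 to 54.7 CPM in wild-type.

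Abca12 and Abca13, named after their values were seen, differed more between libraries of a group than between groups. Abca12, the lipid transporter of epidermal lamellar granules, had 0.0595, 5.88 and 4.64 CPM in Muc2-/- 1, 2 and 3, against 3.88, 33.7 and 0.0954 CPM in wild-type 1, 2 and 3. The lowest library of each group held 1 or 2 counts and the highest, wild-type 2, held 646. Abca13 had 1.49, 0.396 and 3.28 CPM in Muc2-/-, against 0.222, 0.208 and 1.76 CPM in wild-type (log2 fold change 1.21, SE 1.02, edgeR adjusted p = 0.529).

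Abcb1a, 1 of a pair of mouse genes for the drug exporter P-glycoprotein, had the highest level of all members, with a mean of 56.8 FPKM in Muc2-/- and 101 FPKM in wild-type. It stood at 360.1, 273 and 298 CPM in Muc2-/- 1, 2 and 3, against 369, 477 and 820.1 CPM in wild-type 1, 2 and 3. The groups were apart only by the small gap between Muc2-/- 1 and wild-type 1, and wild-type 3 stood well above the rest. The log2 fold change was -0.84 (SE 0.32), with an adjusted p of 0.197 in edgeR and 0.101 in DESeq2, and without wild-type 3 it was -0.44. Abcb1a made up 17.3% to 23.3% of the family's CPM in Muc2-/- and 23.8% to 41% in wild-type. Its order among the wild-type libraries was the reverse of that of Abcc2 and Abca8a.

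Abcb1b, the other P-glycoprotein gene, had far fewer counts. It had 0.774, 0.727 and 1.48 CPM in Muc2-/- 1, 2 and 3, against 2.22, 1.25 and 0.858 CPM in wild-type 1, 2 and 3, with overlap. The longest coding sequences of Abcb1a and Abcb1b in GENCODE M21, both 3828 bases, were 88% identical, the closest pair of the family, and shared 20.3% of their windows of 50 bases without a mismatch. Reads from Abcb1a could therefore be assigned to Abcb1b, and the level of Abcb1b is uncertain. Abca8a and Abca8b, at 73.8% identity, shared 2.18% of such windows.

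Other carriers of subfamily B differed less. Abcb10, which acts in haem synthesis, and Abcb8 had log2 fold changes of 0.07 and 0.04 with overlapping groups. Abcb4, Abcb6 and Abcb9, the carriers of bile phosphatidylcholine, porphyrin and lysosomal peptides, had log2 fold changes between -0.56 and 0.39 and also overlapped. Abcb4 was 75.6% identical to Abcb1a in coding sequence and shared 3.36% of its windows of 50 bases. With 94 counts in all against 48011 for Abcb1a, the level of Abcb4 is uncertain too.

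**Figure D3:**
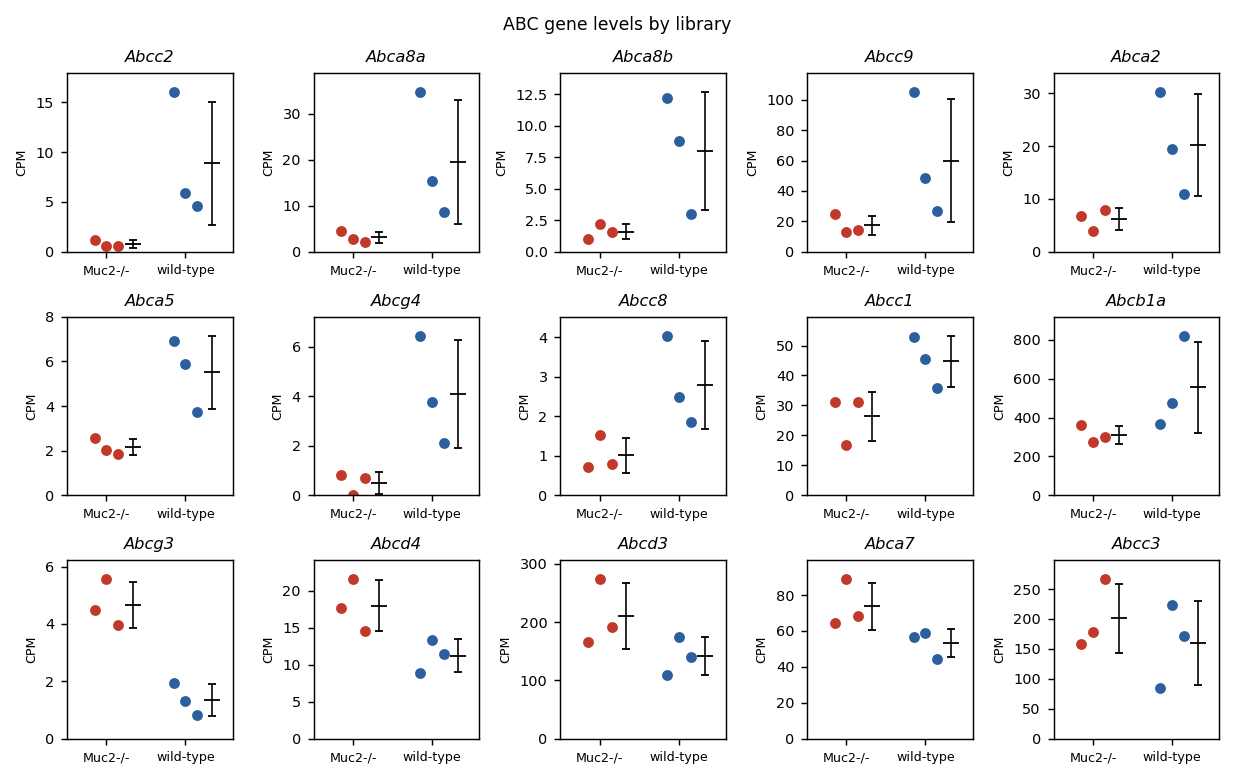
CPM of 15 ABC genes in each library, with Muc2-/- in red left of wild-type in blue and replicates 1 to 3 from left to right, and the mean and SD beside each group (the vertical axes differ). Abcc2 lies at 0.529 to 1.19 CPM in Muc2-/- and 4.63 to 16 CPM in wild-type, whereas Abcc3 overlaps between the groups.

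Of the peroxisomal carriers in subfamily D, Abcd3, which imports branched and dicarboxylic acyl chains, had the highest level, with a mean of 32.1 FPKM in Muc2-/- and 21.2 FPKM in wild-type. It had 165, 273 and 192 CPM in Muc2-/- 1, 2 and 3, against 109, 174 and 140.4 CPM in wild-type 1, 2 and 3. Muc2-/- 1 lay below wild-type 2, so the groups overlapped (log2 fold change 0.57, SE 0.27, adjusted p = 0.269 in edgeR and 0.213 in DESeq2). Abcd4, which works in the release of cobalamin from lysosomes, had 17.7, 21.5 and 14.6 CPM in Muc2-/-, against 8.86, 13.3 and 11.5 CPM in wild-type. These groups were apart (log2 fold change 0.67, SE 0.26, adjusted p = 0.200 in edgeR and 0.118 in DESeq2).

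Abcd2, a peroxisomal carrier of fatty acids, had 4 to 15 counts in a Muc2-/- library and 15 to 56 in a wild-type library (log2 fold change -1.78, SE 0.74, edgeR adjusted p = 0.223). Adipocyte markers, whose tissue expresses Abcd2, summed to 32.1 to 82.2 CPM in Muc2-/- and 24.2 to 79.5 CPM in wild-type. Of the 6 tested, 2 had positive and 4 negative log2 fold changes (median -0.36), and Fabp4 had 0.19. Their part in the lower Abcd2 was not tested.

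The soluble members on ribosomes differed little between the groups. Abce1, the factor that splits ribosomes after termination, had 74.1, 58.5 and 75.5 CPM in Muc2-/- 1, 2 and 3, against 90.6, 78.2 and 71.6 CPM in wild-type 1, 2 and 3 (log2 fold change -0.21, SE 0.19, edgeR adjusted p = 0.557). Abcf1, a factor of translation initiation, had 113, 185 and 127 CPM in Muc2-/-, against 114, 119 and 139 CPM in wild-type (log2 fold change 0.19, SE 0.23, edgeR adjusted p = 0.675). Muc2-/- 2 alone stood out in Abcf1, and the sign turned without it (-0.03). Abcf2 and Abcf3 had log2 fold changes of -0.31 and 0.04 and overlapping groups.

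In subfamily G, Abcg3 was higher in Muc2-/- and Abcg4 lower. Abcg3, a rodent gene related to Abcg2, had 4.47, 5.55 and 3.96 CPM in Muc2-/- 1, 2 and 3, against 1.94, 1.3 and 0.811 CPM in wild-type 1, 2 and 3. All Muc2-/- libraries exceeded the highest wild-type library. Means were 4.66 ± 0.815 CPM in Muc2-/- and 1.35 ± 0.565 CPM in wild-type (SD, n = 3 each; log2 fold change 1.78, SE 0.46, adjusted p = 0.105 in edgeR and 0.00286 in DESeq2). The coding sequences of Abcg2 and Abcg3 were 68.5% identical and shared 0 windows of 50 bases.

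Abcg4, a sterol exporter mainly of neurons and glia, had 0.834, 0 and 0.68 CPM in Muc2-/- 1, 2 and 3, against 6.43, 3.75 and 2.1 CPM in wild-type 1, 2 and 3. It had 14, 0 and 11 counts in Muc2-/- and 116, 72 and 44 counts in wild-type, with no overlap (log2 fold change -2.99, SE 0.95, adjusted p = 0.141 in edgeR and 0.0115 in DESeq2). The log2 fold change was -2.39 without Muc2-/- 2, and -1.94 without both that library and wild-type 1. Abcg1, its relative in macrophages and many other cells, overlapped between the groups, with 7.86 to 12.9 CPM in Muc2-/- and 7.66 to 9.97 CPM in wild-type.

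Abcg2, the apical exporter of urate and many drugs, had the highest level of the subfamily, with a mean of 13.7 FPKM in Muc2-/- and 10.4 FPKM in wild-type. It had 105, 133 and 96 CPM in Muc2-/- 1, 2 and 3, against 64.4, 107 and 85.5 CPM in wild-type 1, 2 and 3, with overlap (log2 fold change 0.38, SE 0.24, edgeR adjusted p = 0.402). Of the 3 apical drug exporters, Abcg2 and Abcb1a were thus abundant in both groups, while Abcc2 was scarce and had the largest difference. The sterol exporter pair Abcg5 and Abcg8, named after their values were seen, lie next to each other on opposite strands of chromosome 17. Abcg5 had 3.1, 1.06 and 5.19 CPM in Muc2-/-, against 1.44, 1.3 and 10.1 CPM in wild-type. Abcg8 had 0.893, 0.132 and 2.04 CPM in Muc2-/-, against 0.831, 1.04 and 3.05 CPM in wild-type. In both genes replicate 3 was highest in each group and the groups overlapped. Their listed spans overlap, and without a stated strand setting their reads cannot be told apart there.

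Markers of the muscle wall and its nerves were lower in Muc2-/- as well. Of the 12 members lower at an unadjusted p under 0.05, 11 had wild-type 1 above wild-type 2 above wild-type 3, the exception being Abcb1a. That order held in 77.4% of all genes lower at that threshold, in 5 of the 26 members past it in neither direction and in 30.8% of all genes tested. Smooth muscle markers had the same order, with sums of 5206, 4921 and 2892 CPM in Muc2-/- 1, 2 and 3, against 24312, 14280 and 6835 CPM in wild-type 1, 2 and 3. All 12 were lower at an unadjusted p under 0.05 (all genes 12.7%), and their median log2 fold change was -1.72. Myosin heavy chain Myh11 averaged 491 CPM in Muc2-/- and 2817 CPM in wild-type (log2 fold change -2.52), and Mylk and Synm had log2 fold changes of -2.13 and -2.06. Markers of enteric neurons and glia (12 of 12 detected, 10 lower) summed to 110.2, 118 and 80.8 CPM in Muc2-/-, against 588, 321 and 145 CPM in wild-type, with a median of -2.16. Stmn2, Gfap and Snap25 had log2 fold changes of -2.29, -2.3 and -2.51.

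Pericyte markers (8 of 8 detected, 7 tested, 4 lower) summed to 107 to 194 CPM in Muc2-/- and 202 to 813 CPM in wild-type, with a median log2 fold change of -1.44 (Rgs5 -2.21, Mcam -1.6 and Cspg4 -1.44). Fibroblast markers (10 of 10 detected, 3 lower) summed to 659 to 957 CPM in Muc2-/- and 789 to 1647 CPM in wild-type (median -0.53; Lum -1.38, Dcn -1.14 and Fbln1 -1.32). Endothelial markers (10 of 10 detected, 1 lower) summed to 64.4 to 77.3 CPM in Muc2-/- and 78.6 to 119 CPM in wild-type (median -0.39; Eng -0.4). Enteroendocrine markers (9 of 9 detected, 8 tested, 5 lower) summed to 217 to 276 CPM in Muc2-/- and 311 to 421 CPM in wild-type (median -0.97; Gcg -1.67, Scg2 -2.11 and Chga -0.85). Markers of interstitial cells of Cajal (3 of 3 detected, 2 lower) summed to 125 to 245 CPM in Muc2-/- and 203 to 263 CPM in wild-type (median -0.82; Etv1 -1.81). Colonocyte markers (12 of 12 detected, 0 higher and 2 lower) summed to 26245 to 33629 CPM in Muc2-/- and 14958 to 25401 CPM in wild-type, with 8 positive and 4 negative log2 fold changes (median 0.27). Slc26a3, a chloride exchanger and 1 of the 2 lower ones, had a log2 fold change of -1.11. At an unadjusted p under 0.05, the threshold of these counts, 8.23% of all genes tested were higher and 12.7% lower. None of these markers was at 0 in all 6 libraries. Their part in the differences of Abcc9, Abca8a, Abca8b, Abca2, Abcc8, Abcg4 and the other lower members was not tested.

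**Figure D4:**
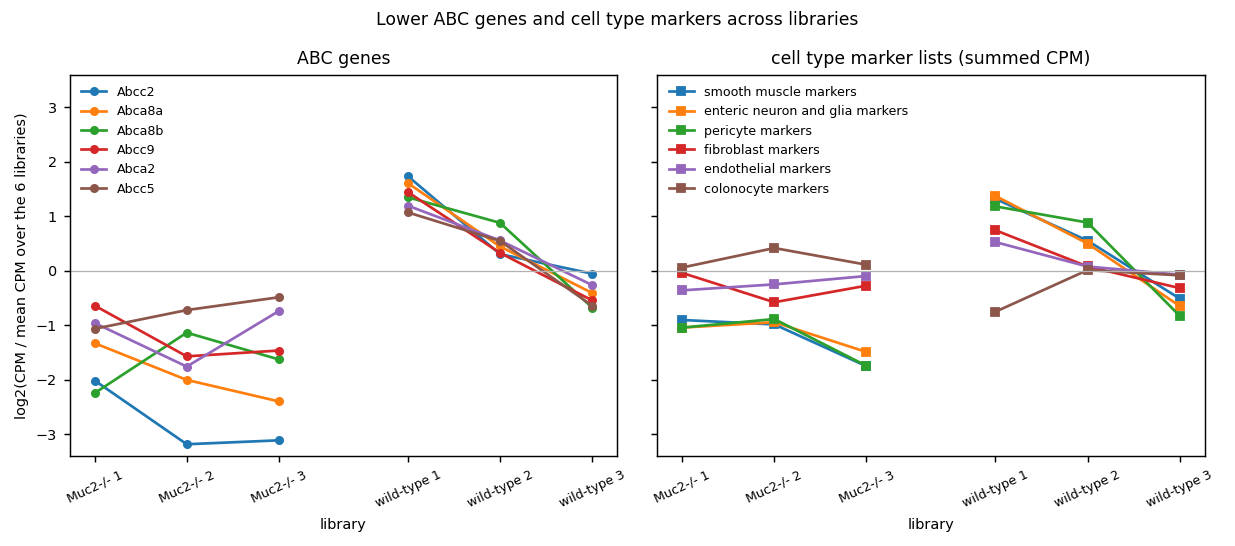
Log2 of CPM relative to the mean over the 6 libraries, for 6 ABC genes lower in Muc2-/- (left) and for the summed CPM of 6 cell type marker lists (right), with the Muc2-/- libraries left of wild-type. Among the wild-type libraries, the ABC genes are highest in wild-type 1 and lowest in wild-type 3. So are the smooth muscle, neuron, pericyte, fibroblast and endothelial lists, whereas colonocyte markers are lowest in wild-type 1.

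Summed markers of macrophages and neutrophils, the only immune cells examined, stood higher in Muc2-/-. Over all genes tested, 8.23% were higher and 12.7% lower at an unadjusted p under 0.05. Macrophage markers (10 of 10 detected, 5 higher and 1 lower at an unadjusted p under 0.05) summed to 238 to 352 CPM in Muc2-/- and 119 to 183 CPM in wild-type. Cd14 and C1qa had log2 fold changes of 1.36 and 1.1, and Cd163 had -1.55. Neutrophil markers (8 of 8 detected, 6 tested, 5 higher) summed to 406 to 787 CPM in Muc2-/- and 77.7 to 232 CPM in wild-type. Ly6g had a log2 fold change of 1.82, S100a8 averaged 65.9 CPM in Muc2-/- and 0.0521 CPM in wild-type, and S100a9 had 0 counts in all 3 wild-type libraries. Markers of goblet cells, which are epithelial (8 of 8 detected, 1 higher), summed to 18124 to 27548 CPM in Muc2-/-. In wild-type 1, 2 and 3 they summed to 3635, 4523 and 19243 CPM, so the groups overlapped. Log2 fold changes were positive in 6 and negative in 2 of them (median 0.95, Spink4 1.36). The part of these cells in the higher Abcg3 and Abcd4 was not tested.

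Family members that carry other names differed among themselves. Tap1 and Tap2 encode the transporter that brings peptides to MHC class I, and Cftr is the epithelial chloride channel. Tap1 had 52.2, 94.7 and 164 CPM in Muc2-/- 1, 2 and 3, against 24.5, 18.2 and 43.8 CPM in wild-type 1, 2 and 3, with no overlap (log2 fold change 1.85, SE 0.47, adjusted p = 0.104 in edgeR and 0.0035 in DESeq2). Tap2 had 43.1, 85.4 and 83.3 CPM in Muc2-/-, against 32.6, 28.4 and 40.1 CPM in wild-type (1.07, SE 0.29, adjusted p = 0.111 in edgeR and 0.0191 in DESeq2). Cftr had 90 to 140.5 CPM in Muc2-/- and 91.7 to 122 CPM in wild-type (0.05, SE 0.24, edgeR adjusted p = 0.928). The 9 tested partners of peptide loading all had positive log2 fold changes (median 0.62), with 5 at an unadjusted p under 0.05 (all genes 8.23% higher). Psmb9, an immunoproteasome subunit, had 55.3, 115 and 119 CPM in Muc2-/-, against 21.3, 20.5 and 38.4 CPM in wild-type. Psmb8, another such subunit, and B2m, the light chain of MHC class I, had log2 fold changes of 1.86 and 0.96.

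Genes that act upstream of the exporters or beside them were described in the same way, and edgeR called none of them over all genes. Counts of higher and lower genes in these lists are at an unadjusted p under 0.05, where all genes gave 8.23% and 12.7%. Of 12 sensors of bile acids and xenobiotics, 1 was higher at an unadjusted p under 0.05 and 0 lower (median log2 fold change -0.09). That gene was Nr1h4, the bile acid receptor, with 61.9, 62.8 and 77.8 CPM in Muc2-/- 1, 2 and 3, against 26.5, 35.8 and 40.3 CPM in wild-type 1, 2 and 3. The groups were apart (log2 fold change 0.98, SE 0.21, adjusted p = 0.101 in edgeR and 0.0035 in DESeq2). Of 17 tested solute carriers for drugs, bile acids and nucleosides, 3 were higher and 6 lower (median -0.35). Slc51b, a subunit of the basolateral bile acid exporter, had 35.7, 58.3 and 64.5 CPM in Muc2-/-, against 9.47, 29.7 and 12.7 CPM in wild-type (log2 fold change 1.61, SE 0.44, adjusted p = 0.113 in edgeR and 0.00857 in DESeq2).

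Slc29a1, a nucleoside transporter, had 16.4, 12.4 and 15.7 CPM in Muc2-/- 1, 2 and 3, against 45.6, 29.4 and 26.2 CPM in wild-type 1, 2 and 3 (log2 fold change -1.19, SE 0.27, adjusted p = 0.103 in edgeR and 0.00286 in DESeq2). Slc22a4, the ergothioneine transporter, had 0.298, 0.529 and 0.68 CPM in Muc2-/-, against 1.99, 1.41 and 1.91 CPM in wild-type. Of 14 tested genes of sterol and phospholipid handling, 2 were higher and 1 lower at an unadjusted p under 0.05 (median 0.13). The lower one, Mylip, a ligase that marks the LDL receptor for breakdown, had 16.6, 8.33 and 14.3 CPM in Muc2-/-, against 22.8, 23.3 and 27.5 CPM in wild-type. Of 16 genes of peroxisomal import and oxidation, the surroundings of Abcd2 and Abcd3, 0 passed an unadjusted p of 0.05 either way in edgeR, and 0 were called by DESeq2 (median 0.12).

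Of 18 genes of haem and iron-sulfur cluster synthesis, the setting of Abcb10, 3 were higher and 0 lower at an unadjusted p under 0.05 (median 0.14). Alas1, the first enzyme of haem synthesis and the highest of the list in mean CPM, had 212, 315 and 275 CPM in Muc2-/- 1, 2 and 3, against 76.1, 208 and 133 CPM in wild-type 1, 2 and 3. Its lowest Muc2-/- library was just above wild-type 2 (log2 fold change 0.94, SE 0.36, edgeR adjusted p = 0.195). Of 11 partners of Abce1 and the F proteins on the ribosome, 1 was higher and 0 lower (median -0.02). Eif2s2, an initiation factor subunit, had 431 to 466 CPM in Muc2-/- and 202 to 376 CPM in wild-type (log2 fold change 0.74, SE 0.28, edgeR adjusted p = 0.185).

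Single libraries set which members were called. Without wild-type 3, edgeR called 6 members lower, namely Abca2, Abca8a, Abca8b, Abcc2, Abcc5 and Abcc9, with 5.68% of all genes called lower. Without any 1 of the other 5 libraries it called 0 members either way. Those fits called few genes of any kind, at most 0.107% of all genes higher and 0.00596% lower. The choice of procedure mattered too. With no filter on low counts 6 members were called lower (3.04% of all genes), namely Abca2, Abca8a, Abca8b, Abcc2, Abcc9 and Abcg4. At an adjusted p under 0.1 Abcc2 alone was called (0.335% of all genes lower).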

How the data were processed

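RNA of 6 libraries, 3 from Muc2-/- and 3 from wild-type descending colon, was sequenced with paired-end reads after poly-A selection, per the labels' protocols. The authors deposited FPKM and raw counts per gene, in a table each. The submitters' processing notes list StringTie 1.3.3b, HISAT2 2.0.5, DESeq2 1.20.0 and featureCounts 1.5.0-p3 with no role or order, and name mm10 as the genome build. The deposited FPKM, compared with the counts here, corresponded to counts divided by gene length and by a library total scaled with a factor of 0.86 to 1.14. Strand setting and annotation release are not given in the sources used here. Gene coordinates are those of the count table, whose assembly differs from GRCm38.p6 (Abcc2 begins at 43770631 in the table, and its RefSeq promoter ends at 43782307), so they are not to be joined with the promoter windows.

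The test of the counts was that of edgeR 4.0.16 (R 4.3.3): TMM factors, the default filter (minimum count 10, total 15), a quasi-likelihood fit of genotype on all 6 libraries, and Benjamini-Hochberg adjustment at 0.05 over 16107 genes. CPM were scaled by library total and TMM factor, with SD over 3 libraries. Members described library by library were those called in edgeR or DESeq2 1.42.0, those apart between groups at 1 CPM or more, and the highest in FPKM of each subfamily, plus pairs over 85% identical. From each other list up to 3 genes called in DESeq2 were named, or else the highest. Results for some named genes are not reported here. Abca1, Abca6, Abca9, Abca12, Abca13, Abcc5, Abcd2, Abcg5 and Abcg8 were given by library after their values were seen. Loci without a gene name held 0.144% to 0.192% of counts. The members and lists were chosen with earlier results of these data known. Coding sequences of GENCODE M21 were aligned as nucleotides with Biopython 1.88, because no protein sequences were at hand. Pairs of replicates differed by 25 to 148 in chi-square per degree of freedom and were kept apart. In simulated counts for this comparison (15763 genes tested, 200 changed), the procedure recovered 11.9% of the 2-fold changes, 80.6% of the 4-fold changes and 100% of the 16-fold changes, and 6 of its 134 calls were unchanged genes. In the data the same procedure did not call Abcc2, 11.7-fold lower, or Abcg4, 8.11-fold lower. The simulated shares may therefore overstate what is recovered here. Alternatives were other scalings, filters and tools, the replicate number as a block, and libraries left out.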

Additional observations from a re-analysis of the deposited data

How the results depend on the processing

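The count of members called in edgeR was 0 higher and 0 lower. It was the same under RLE, upper-quartile and no composition factors, a stricter filter, limma-voom and protein-coding genes only. It was also the same in limma on log2 FPKM with either pseudocount and with or without a minimum. These settings called few genes of any kind, 0.0112% to 0.292% of all genes higher and 0% to 0.0711% lower. With the FPKM minimum only 26 members were tested. Members called lower numbered 7 in DESeq2 (7.41% of all genes), 6 without a filter on low counts (3.04%) and 1 at an adjusted p under 0.1 (0.335%, Abcc2). With single libraries left out they numbered 0 to 6 (0% to 5.68% of all genes). Members called higher numbered 2 in DESeq2 (4.09% of all genes) and 0 with any single library left out (0% to 1.62%). With wild-type 1 and Muc2-/- 2 both left out, 0 were called, where 0.00616% of all genes were called higher and 0% lower. Fitting the replicate number as a block gave 3 lower members, Abca8a, Abcc2 and Abcc9 (2.78% of all genes). Deviations of same-numbered libraries correlated at 0.0937, 0.281 and 0.0606, not all above 0.1, and Muc2-/- 3 correlated best with wild-type 1, so the numbers were not taken to pair the samples. Of 19 members selected by the naming rule, all but Abcf1 kept their direction under every setting that they entered. Only 14 of them entered limma on FPKM with a minimum, which left out Abca5, Abca8b, Abcc2, Abcc8 and Abcg4. Abcf1 had -0.01 with no composition factors and -0.03 to 0.34 with single libraries left out (-0.03 without Muc2-/- 2). It had -0.11 without wild-type 1 and Muc2-/- 2, and the cause was not tested. Using no composition factors moved the median log2 fold change of all genes to -0.2 and that of the members to -0.48. Low counts limit Abcb1b, Abcd2, Abcc8 and Abcg4, and with 3 libraries a group, 2-fold changes were seldom called in the simulated counts. In the data, edgeR did not call the larger difference of Abcc2 (11.7-fold) either.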
